A study of Homo sapiens with 5 samples.

Results

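The 35 genes described here encode the enzymes that make, recycle and balance purine, pyrimidine and deoxyribonucleotides, with the folate enzymes that feed them. They were chosen by name from a list of 35 symbols, out of 17297 genes in a table of ribosome-protected fragments (footprints). Earlier results of these data were known when they were chosen. All 35 were in the table and all 35 passed the filter on low counts, so no member dropped out. The table came from HCT116, a human colorectal carcinoma line, with 2 libraries of unedited cells (WT) and 3 libraries of cells homozygous for the N106S change in eIF6 (MUT). MUT cells were clones made by CRISPR/Cas9 editing, and the labels list no drug or other agent for either group. eIF6 binds the large ribosomal subunit, helps to assemble it and keeps it from joining the small subunit. Which clone each MUT library came from is not stated, nor whether libraries of a group were separate cultures. The p-values thus cover the spread among these 5 libraries alone, and that spread may be technical. An effect of the amino acid change and any other difference of the clones from their parent line cannot be told apart.

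Purines are built stepwise on phosphoribosyl pyrophosphate (PRPP) until inosine monophosphate (IMP) is reached, which is then turned into AMP or GMP. Pyrimidines are built as a ring first and joined to PRPP afterwards, and CTP is made from UTP. Salvage enzymes rebuild nucleotides from free bases and nucleosides, folate carries the one-carbon units that purines and thymidylate need, and ribonucleotide reductase makes the deoxy forms used for DNA. Growing tumour cells draw heavily on these routes, and several of the enzymes are targets of older anticancer drugs.

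Library totals ran from 2095217 to 3821176 counts, with WT replicate 1 the smallest, and the members had between 47 and 1760 counts each per library. EIF6 itself stood at 184 and 171 CPM (counts scaled to a common library total) in WT and at 149, 169 and 154 CPM in MUT, and did not pass the test (edgeR adjusted p = 0.215). The CPM use edgeR's TMM factors, so each value is relative to the other genes of its library. Markers of colorectal epithelium summed to 1038 to 1135 CPM in WT and 1106 to 1414 CPM in MUT over the 7 of 8 listed genes in the table. Within that sum EPCAM and CDH1 were called lower (log2 fold changes -0.50 and -0.90, edgeR adjusted p = 0.0087 and 0.00741) and KRT8 and KRT19 higher (0.37 and 0.29, 0.0199 and 0.0463), calls that were all lost without WT replicate 2. VIL1 and CDX1 were at or near 0, with at most 0.327 and 0.527 CPM. The 18 listed markers of leukocytes, erythroid cells, fibroblasts, endothelium, hepatocytes and neurons had between 0 and 12.4 CPM per summed list, and only the hepatocyte list, which is ALB alone, reached 0. Of the listed markers, LGALS4, PTPRC and PECAM1 were not analysed here. In bulk libraries like these, fewer ribosomes on an mRNA and fewer copies of that mRNA cannot be told apart, and RNA-seq was not analysed here.

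Footprints of 9 of the 35 enzymes were lower in MUT and 3 were higher, by edgeR's quasi-likelihood test with Benjamini-Hochberg adjustment over all 11991 genes tested at a threshold of 0.05. The lower ones were DUT, PRPS2, PAICS, HPRT1, ADSS2, DCK, APRT, CMPK1 and PPAT, and the higher ones SAMHD1, CTPS1 and IMPDH1. The lower calls made up 25.7% of the members, against 12.9% of all tested genes called lower. The higher calls made up 8.57%, against 10.0% of all tested genes. All MUT libraries lay below all WT libraries for 11 members (31.4%, against 25.3% of all tested genes) and above them for 4 (11.4%, against 25.4%). The median log2 fold change, MUT over WT, was -0.15 for the members and 0.00 for all tested genes. The changes were small: the called members moved between 1.21-fold and 1.67-fold. Without WT replicate 2 the lower calls fell to 5 and the median to -0.04. The higher calls numbered 0 with DESeq2, without MUT replicate 1 or without MUT replicate 2, and 1 without WT replicate 1 or WT replicate 2, with libraries thinned to the smallest or after a correction for local gene density and gene span.

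**Figure D1:**
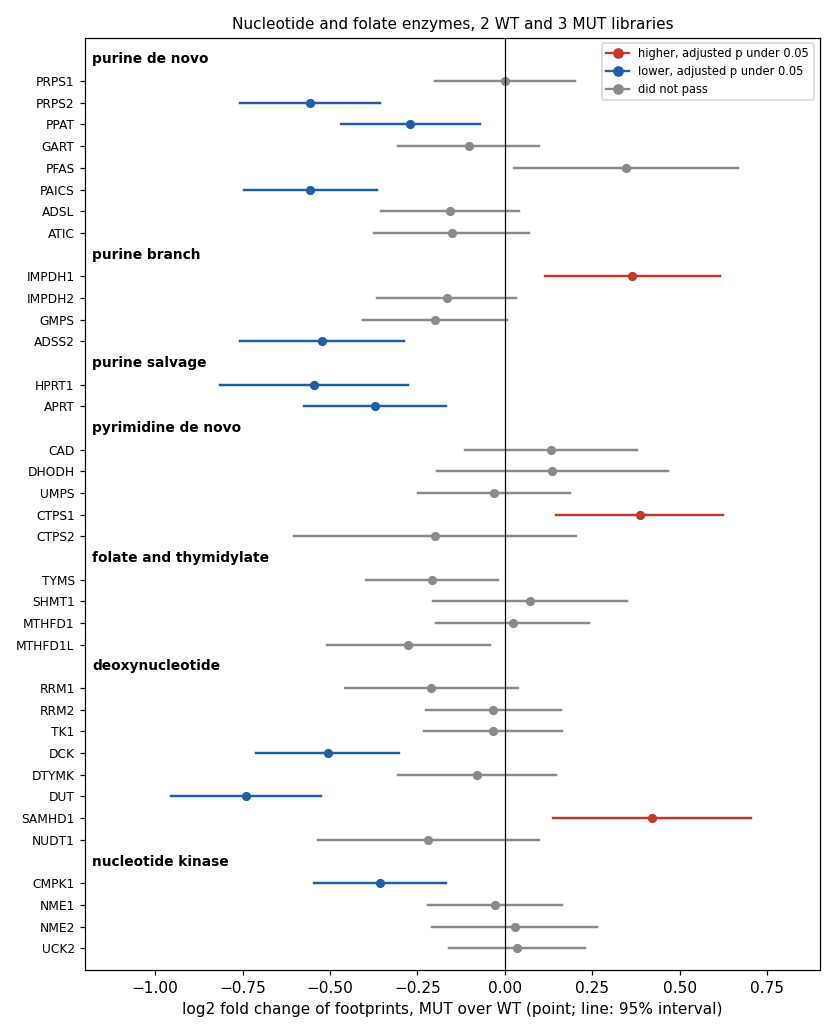
Log2 fold change of footprints, MUT over WT, for the 35 enzymes (x axis, log2 units) grouped by role (y axis), with the 95% interval of edgeR's quasi-likelihood fit as a line. Blue marks the 9 genes lower in MUT, red the 3 higher and grey the 23 that did not pass. Both purine salvage enzymes are blue, and no enzyme of the folate group is coloured. Of all tested genes 12.9% were called lower and 10.0% higher.

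The members together held 0.615% and 0.638% of all counts in the WT libraries, and 0.587%, 0.600% and 0.567% in the MUT libraries. The exact (Clopper-Pearson) 95% interval for WT replicate 1 was 0.604% to 0.626% and for MUT replicate 2, the highest of its group, 0.592% to 0.607%. These intervals cover counting error only. The groups did not overlap, though the intervals of those libraries touched. Most of the difference lay in the purine genes, but it was not confined to them. The 8 purine de novo enzymes summed to 1728 and 1809 CPM in WT and to 1442, 1519 and 1409 CPM in MUT. Without PAICS the other 7 summed to 1163 and 1234 CPM in WT and to 1065, 1109 and 1033 CPM in MUT, still without overlap. The 4 enzymes of the branch after IMP summed to 810 and 827 CPM in WT and to 748, 740 and 698 CPM in MUT, and the salvage pair to 222 and 244 CPM in WT and to 165, 170 and 180 CPM in MUT. The 8 deoxynucleotide enzymes were also lower without overlap, at 1348 and 1376 CPM in WT and 1199, 1297 and 1173 CPM in MUT. So were the 4 folate and thymidylate enzymes, at 965 and 896 CPM in WT and 861, 833 and 784 CPM in MUT. The 4 nucleotide kinases summed to 1013 and 994 CPM in WT and to 937, 938 and 938 CPM in MUT, again without overlap. The 5 pyrimidine de novo enzymes summed to 350 and 380 CPM in WT and to 397, 431 and 378 CPM in MUT, with overlapping groups.

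At the entry to purine synthesis, PRPP is made by PRPS1 and PRPS2, and PPAT then takes the committed step. PRPS2 had 183 and 161 CPM in WT and 112, 117 and 120 CPM in MUT. Every MUT library lay below both WT libraries, and the fall of 0.56 on the log2 scale (SE 0.0976) had an edgeR adjusted p of 0.000278. PRPS1, its paralog on the same chromosome, X, had 157 and 181 CPM in WT and 173, 167 and 171 CPM in MUT. Its groups overlapped, and its log2 fold change was 0.00 with a 95% interval of -0.20 to 0.20. PPAT had 191 and 186 CPM in WT against 164, 144 and 161 CPM in MUT. Its groups did not overlap, but its log2 fold change of -0.27 passed only just (edgeR adjusted p = 0.0439). The call on PPAT was lost in 11 of 16 alternative fits, among them DESeq2 (0.117) and library size only (0.14), and adjusted p over them ran from 0.00659 to 0.189.

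PAICS, which carries out a pair of mid-pathway steps in one protein, was the called purine enzyme with the lowest adjusted p. It had 565 and 575 CPM in WT and 377, 411 and 376 CPM in MUT, 1.47-fold lower, with the WT libraries close together and all MUT libraries far below them (edgeR adjusted p = 0.00017). The steps on either side of it did not pass. GART, a fused enzyme that acts at 3 steps, averaged 279 ± 14.5 CPM over the WT libraries (SD, n = 2) against 261 ± 23.8 CPM over the MUT libraries (SD, n = 3). ADSL, which splits off fumarate, and ATIC, which finishes IMP, had log2 fold changes of -0.16 (95% interval -0.35 to 0.04) and -0.15 (-0.37 to 0.07). PFAS, the amidating enzyme upstream of PAICS, pointed the other way with 38.0 and 39.2 CPM in WT and 47.4, 57.7 and 42.3 CPM in MUT. Its MUT libraries were all above the WT libraries, and it did not pass (log2 fold change 0.35, edgeR adjusted p = 0.111); with the replicate number as a block (0.0147) or without MUT replicate 3 (0.045) it did. PPAT and PAICS overlap each other on chromosome 4 in the annotation (PPAT 56393362 to 56435615, PAICS 56410507 to 56464578, GRCh38.p14), and the sources used here do not say whether the counting used strand. The part of shared reads in their values was not tested.

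At the branch after IMP, 1 of 4 enzymes rose and 1 fell, where 10.0% of all tested genes were called higher and 12.9% lower. IMPDH1, an isoform of the rate-limiting enzyme of GMP synthesis, rose from 62.9 and 63.8 CPM in WT to 85.9, 84.8 and 74.7 CPM in MUT. The groups lay apart, and the log2 fold change was 0.36 (SE 0.121, edgeR adjusted p = 0.0312). That call was lost in 7 of 16 alternative fits, among them DESeq2 (0.114) and the fits without either WT library (0.125 and 0.148). IMPDH2, the isoform known to be raised in proliferating cells, had 432 and 383 CPM in WT and 391, 351 and 347 CPM in MUT, with overlap (log2 fold change -0.17, 95% interval -0.36 to 0.03). It was called lower only after the correction for gene density and span (0.0157). GMPS, which completes GMP, had a log2 fold change of -0.20 (-0.40 to 0.01) and was called lower only without WT replicate 1 (0.0477). On the AMP side ADSS2, which makes adenylosuccinate, fell from 103 and 123 CPM in WT to 71.3, 84.8 and 80.8 CPM in MUT. Its groups did not overlap (1.44-fold lower, edgeR adjusted p = 0.00194), and without WT replicate 2 its adjusted p was 0.115.

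Both purine salvage enzymes were called lower, where 12.9% of all tested genes were. HPRT1, which returns hypoxanthine and guanine to the nucleotide pool, had 86.4 and 113 CPM in WT and 61.4, 65.8 and 80.1 CPM in MUT. The groups did not overlap, but the highest MUT library came close to the lower WT library. The fall was 0.55 on the log2 scale (SE 0.13, edgeR adjusted p = 0.0041), and without WT replicate 2 the adjusted p was 0.264. APRT, which does the same for adenine, had 136 and 130 CPM in WT and 103, 105 and 100 CPM in MUT. These libraries were tight within each group, and the log2 fold change was -0.37 (edgeR adjusted p = 0.00853). The APRT call was lost narrowly without WT replicate 1 (0.0544) or WT replicate 2 (0.0543), and with libraries thinned to the smallest (0.0778).

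Of the 5 pyrimidine de novo enzymes 1 rose and 0 fell in edgeR's test, where 0 were lower at an unadjusted p under 0.05 and 0 by DESeq2. That test called 10.0% of all tested genes higher and 12.9% lower. CTPS1, the CTP synthase linked to lymphocyte proliferation, went from 103 and 83.4 CPM in WT to 122, 131 and 109 CPM in MUT. The lowest MUT library was just above the higher WT library (1.31-fold, edgeR adjusted p = 0.0182), and without WT replicate 2 the adjusted p was 0.331. Its paralog CTPS2 was the member with the fewest counts, 47 in WT replicate 1, and its interval was the widest (-0.60 to 0.20). CAD, the fused enzyme of the first 3 steps, had 86.9 and 121 CPM in WT and 116, 124 and 107 CPM in MUT. The WT libraries of CAD differed by more than the group means did, and the log2 fold change was 0.13 (95% interval -0.11 to 0.38). DHODH, the mitochondrial step, and UMPS, which ends in UMP, had log2 fold changes of 0.14 and -0.03, neither called.

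In the folate and thymidylate group 0 of 4 passed edgeR's test, which called 12.9% of all tested genes lower and 10.0% higher. At an unadjusted p under 0.05 in that test 2 of the group were lower, and DESeq2 and limma-voom called 0. TYMS, which makes thymidylate from dUMP, had 414 and 399 CPM in WT and 342, 366 and 345 CPM in MUT. Its groups did not overlap, yet its log2 fold change of -0.21 (SE 0.0919) missed the threshold (edgeR adjusted p = 0.102), as it did in all 16 alternative fits. MTHFD1L, the mitochondrial formate-releasing enzyme, had 353 and 271 CPM in WT and 296, 233 and 241 CPM in MUT, with overlap (log2 fold change -0.28, edgeR adjusted p = 0.0798). It passed in 4 of 16 alternatives, for example without WT replicate 2 (0.0337). The cytosolic enzymes SHMT1 and MTHFD1 had log2 fold changes of 0.07 (95% interval -0.20 to 0.35) and 0.02 (-0.20 to 0.24).

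The strongest change among all members was in DUT, the dUTPase that keeps uracil out of DNA and supplies dUMP to TYMS. DUT had 134 and 148 CPM in WT and 84.0, 90.8 and 79.8 CPM in MUT, 1.67-fold lower with no overlap (log2 fold change -0.74, SE 0.104, edgeR adjusted p = 2.54e-05). DCK, the kinase that salvages deoxycytidine and activates drugs such as gemcitabine, had 148 and 169 CPM in WT and 107, 111 and 118 CPM in MUT. Its groups lay apart as well (log2 fold change -0.51, edgeR adjusted p = 0.000801; 0.054 without WT replicate 2). SAMHD1, which breaks deoxynucleotides down, moved the opposite way, from 46.9 and 65.1 CPM in WT to 72.2, 84.5 and 72.6 CPM in MUT (log2 fold change 0.42, edgeR adjusted p = 0.0284). The WT libraries of SAMHD1 were far apart, and without WT replicate 1, the lower of them, its adjusted p was 0.336.

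The enzymes best known as S-phase markers did not pass. RRM2, the regulated subunit of ribonucleotide reductase, had 431 and 437 CPM in WT and 415, 449 and 410 CPM in MUT, with a 95% interval of -0.23 to 0.16 for its log2 fold change. TK1, the thymidine salvage kinase, averaged 221 ± 20.1 CPM over the WT libraries (SD, n = 2) against 215 ± 9.96 CPM over the MUT libraries (SD, n = 3). RRM1, the large reductase subunit, varied among the MUT libraries, with 166, 215 and 145 CPM against 192 and 213 CPM in WT. Without MUT replicate 2, the library that reached the WT level, RRM1 was called lower (edgeR adjusted p = 0.0113). DTYMK, the next kinase after TYMS and TK1, had 90.9 and 88.3 CPM in WT and 86.8, 82.2 and 85.2 CPM in MUT, apart but by a log2 fold change of only -0.08. NUDT1, which clears oxidised purine nucleotides, had a log2 fold change of -0.22 (95% interval -0.54 to 0.10), with WT libraries at 69.9 and 50.0 CPM, and was called only with the replicate number as a block (0.0458).

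Among the nucleotide kinases CMPK1, which phosphorylates UMP and CMP, fell from 292 and 276 CPM in WT to 219, 213 and 231 CPM in MUT. The groups were well apart (1.28-fold lower, edgeR adjusted p = 0.0068), and the call held in all 16 alternative fits. UCK2, the uridine-cytidine kinase, averaged 191 ± 1.87 CPM over the WT libraries (SD, n = 2) against 195 ± 10.2 CPM over the MUT libraries (SD, n = 3). NME1 and NME2, which pass phosphate among nucleoside di- and triphosphates, had log2 fold changes of -0.03 (95% interval -0.22 to 0.16) and 0.03 (-0.21 to 0.26). A readthrough gene that spans both, NME1-NME2, has a row of its own in the table. It had 638 and 509 CPM in WT and 484, 448 and 444 CPM in MUT, and was called lower (log2 fold change -0.32, edgeR adjusted p = 0.0264). That call was lost in 6 of 16 alternative fits, among them library size only and the fit without WT replicate 1, where the log2 fold change was -0.16 (adjusted p = 0.302). The sources used here do not say how reads common to these 3 rows were divided, so each of them is uncertain. In all, 14 of the 35 members overlap another gene of the table in the annotation, among them TYMS, which overlaps ENOSF1 (log2 fold change -0.07, not called). Also 14 members, in part the same genes, have pseudogenes named after them in RefSeq, with 11 for IMPDH1, 8 for DUT, 7 for PAICS and 3 for HPRT1, and how reads shared with such copies were counted is not stated.

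**Figure D2:**
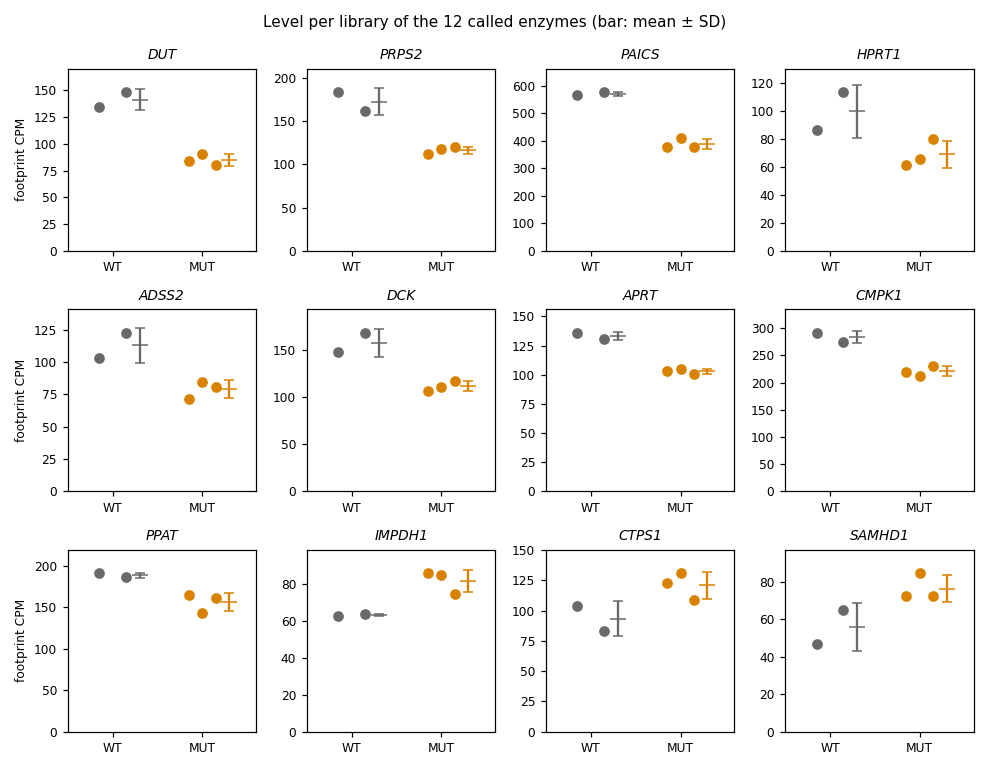
Footprint level in each library (y axis, CPM scaled by TMM, starting at 0) for the 12 called enzymes, with 2 WT libraries in black, 3 MUT libraries in orange and the mean ± SD beside each group. The MUT points of DUT, PRPS2 and PAICS lie well below the WT points, while for HPRT1, CTPS1 and SAMHD1 the nearest points of the groups are close.

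Of the 9 lower calls DUT, PRPS2, PAICS and CMPK1 held in all 16 alternative fits, and DCK, HPRT1 and ADSS2 held in all but the fit without WT replicate 2. None of the 3 higher calls held in all of them. Of the 23 members that did not pass, 19 had a 95% interval within 0.5 log2 units of 0 in both directions. The exceptions were PFAS, CTPS2, MTHFD1L and NUDT1.

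In each of the pairs PRPS1 and PRPS2, IMPDH1 and IMPDH2, and CTPS1 and CTPS2, the second gene's log2 fold change was more than 0.5 below that of the first. These pairs encode enzymes of the same reaction, and their shares are described here without a test. PRPS1 held 46.2% and 53.0% of the pair's counts in WT and 60.7%, 58.8% and 58.8% in MUT, without overlap. The exact 95% interval of the higher WT library, 49.9% to 56.0%, reached just past the lower bounds of 55.8% and 55.9% in MUT replicates 2 and 3. IMPDH1 held 12.7% and 14.3% in WT and 18.0%, 19.5% and 17.7% in MUT, again without overlap. CTPS1 held 81.5% and 71.8% in WT and 81.9%, 82.4% and 84.3% in MUT, where WT replicate 1 was almost at the MUT level. NME1 held 83.7% and 84.8% of the NME1 and NME2 counts in WT and 85.0%, 83.0% and 83.5% in MUT, with overlap. RRM1 held 30.8% and 32.7% of the reductase counts in WT and 28.6%, 32.3% and 26.2% in MUT, with overlap. TYMS, of the pair of thymidylate producers TYMS and TK1, held 63.8% and 65.9% in WT and 60.5%, 62.7% and 62.9% in MUT.

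**Figure D3:**
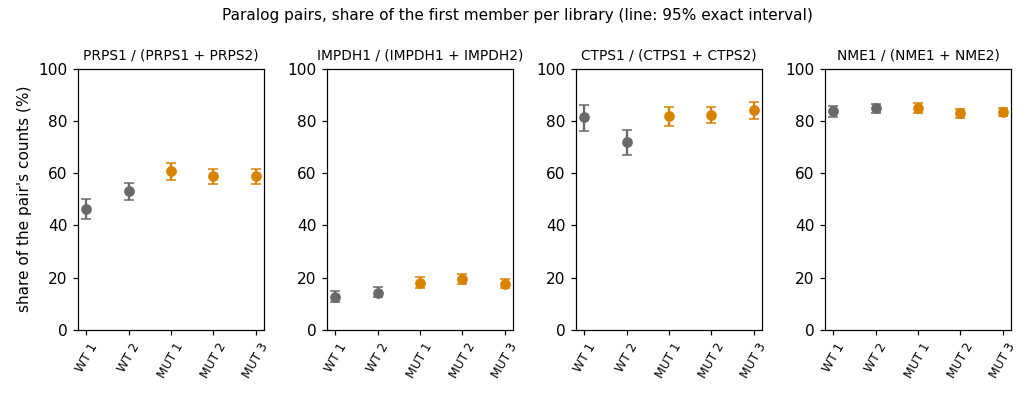
Share of a paralog pair's footprint counts held by its first gene (y axis, percent) in each of the 5 libraries (x axis), with exact 95% intervals that cover counting error only. The share of PRPS1 and of IMPDH1 is higher in each MUT library (orange) than in both WT libraries (black), while that of NME1 lies between 83.0% and 85.0% throughout.

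The promoters of the members were searched for motifs of factors known to act on growth genes, since several members share such control by textbook knowledge. RefSeq promoter sequences (GRCh38.p14, the 250 bases before the start that the promoter table uses) were matched for 33 of the 35 members, all but ADSL and IMPDH2. For 7 of the 33 that start differs from the outer bound of the gene, by 784 bases for MTHFD1L and 7085 bases for NUDT1. The E-box CACGTG, the motif bound by MYC and related factors and the same on both strands, was in 7 of them (21.2%, against 8.43% of 13776 promoters of genes in the table). CCAAT on either strand was in 13 (39.4%, against 34.7%), and any of the E2F-type motifs TTTCGCGC, TTTGGCGC and TTTCCCGC on either strand was in 2, PRPS2 and TYMS (6.06%, against 3.52%). Among the members with an E-box, DCK and PPAT were called lower and the other 5 were not called. The 7 E-box windows are shown so that the bases around the motif can be compared, 5′ to 3′ on the gene's strand with the motif in capitals:
ATIC: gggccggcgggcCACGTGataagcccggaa
PPAT: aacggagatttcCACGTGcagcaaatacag
DCK: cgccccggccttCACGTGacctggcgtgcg
MTHFD1L: cacgcccggctcCACGTGcgcagccggccg
NUDT1: agaggcccaggcCACGTGtcccgtgtggtc
MTHFD1: ccagtccctaagCACGTGggttgggtt
DHODH: gccgctactgcgCACGTGcacccaaccaga

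The DCK window lies at chr4:70993521-70993550 on the plus strand and starts its motif 116 bases before that start. The PPAT window lies at chr4:56435780-56435809 on the minus strand, with the motif 182 bases before its start. The other windows lie at chr2:215312001-215312030 (ATIC), chr6:150866320-150866349 (MTHFD1L), chr7:2249200-2249229 (NUDT1), chr14:64388326-64388352 (MTHFD1) and chr16:72008573-72008602 (DHODH), all on the plus strand. A match is a description of these letters and not of a bound site. MYC itself had 449 and 381 CPM in WT and 362, 344 and 328 CPM in MUT. Its libraries did not overlap, and it did not pass (log2 fold change -0.26, edgeR adjusted p = 0.0516). MYC was called lower in 3 of 16 alternative fits, among them limma-voom (adjusted p = 0.0452) and edgeR with robust dispersion (0.0421). It was named after its value was seen. The median number of protein-coding genes within 500000 bases on either side was 10 for the lower members, 16 for the higher ones and 12 for all tested genes with a position.

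Genes of neighbouring pathways were read from 7 lists of 82 genes, of which 76 passed the filter. Of these, 13 were lower and 6 higher, with a median log2 fold change of -0.01. With library size only the counts were 10 lower and 12 higher, and with upper-quartile scaling 12 and 11, so the balance between them depends on the scaling. Over all tested genes the test called 1203 higher (10.0%) and 1544 lower (12.9%), which became 1756 and 1040 with library size only. Without WT replicate 2, 5 of the neighbouring genes were lower and 2 higher.

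The folate and one-carbon list had 5 genes lower and 0 higher of 17 tested by edgeR, with 2 higher at an unadjusted p under 0.05 and 0 higher by DESeq2. Of all tested genes edgeR called 12.9% lower and 10.0% higher. MTHFD2, the mitochondrial dehydrogenase upstream of MTHFD1L, fell from 529 and 484 CPM to 358, 364 and 381 CPM (edgeR adjusted p = 0.00106). That call held in all 16 alternative fits. GCSH, of the glycine cleavage system, had few counts (29 to 79 per library) and a log2 fold change of -1.14, with an adjusted p of 0.184 without WT replicate 2. SHMT2, the mitochondrial partner of SHMT1, had a log2 fold change of -0.01 (95% interval -0.22 to 0.21); it was named after its value was seen, as were MTFMT and DLD in the plot of called neighbouring genes. Of the serine synthesis enzymes, which supply the one-carbon units, PSAT1 (1.35-fold) and PSPH (1.45-fold) were lower and PHGDH did not pass (log2 fold change -0.07; named after its value was seen). The calls on PSAT1 and PSPH were lost without WT replicate 2 (0.0751 and 0.183).

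Among purine interconversion and breakdown genes 3 of 20 tested were lower and 2 higher, against 12.9% and 10.0% of all tested genes. MTAP, which recovers adenine for APRT, fell from 534 and 523 CPM in WT to 326, 339 and 334 CPM in MUT, 1.59-fold with tight groups (edgeR adjusted p = 1.67e-05). AK1, an adenylate kinase, rose 1.51-fold (edgeR adjusted p = 0.000683), and both held in all 16 alternative fits. AK6 and AK3 were lower and AMPD2, which deaminates AMP to IMP, was higher, and each of these 3 lost its call in a fit that left out a WT library (AK6 and AMPD2 without WT replicate 2, AK3 without WT replicate 1). Among pyrimidine interconversion and breakdown genes 1 of 16 tested was higher and 1 lower, again against 10.0% and 12.9% of all tested genes. The higher gene was TYMP, thymidine phosphorylase, and the lower one NT5C3A, a nucleotidase. TYMP kept its call in 15 of 16 alternative fits and lost it without WT replicate 2 (log2 fold change 0.54). NT5C3A passed only just (edgeR adjusted p = 0.0458) and kept its call in 6 of 16. It lost the call with DESeq2 (0.166), with library size only (0.0974) and without WT replicate 2 (log2 fold change -0.27), among others. The nucleoside transporters SLC29A1 and SLC29A2 were higher (log2 fold changes 0.52 and 0.72). SLC29A1 and SLC29A2 were not called by DESeq2 (0.118 and 0.0575). Of 4 further members of the NME family 0 passed edgeR's test, with 1 higher at an unadjusted p under 0.05 and 0 called by DESeq2.

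Among known regulators CDKN1A was called higher. CDKN1A, an inhibitor of cyclin-dependent kinases, rose from 354 and 288 CPM in WT to 557, 535 and 629 CPM in MUT (edgeR adjusted p = 8.46e-06). Its call held in all 16 alternative fits. E2F1, a driver of S-phase genes, averaged 32.0 ± 2.74 CPM over the WT libraries (SD, n = 2) against 32.0 ± 2.12 CPM over the MUT libraries (SD, n = 3) and was named after its value was seen.

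**Figure D4:**
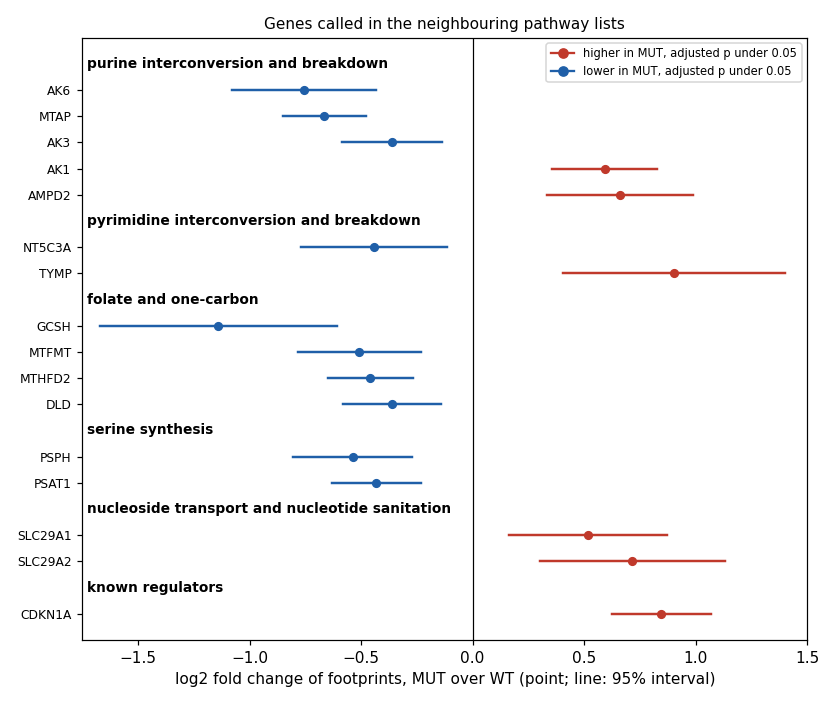
Log2 fold change of footprints, MUT over WT (x axis, log2 units), with its 95% interval, for 16 called genes of the neighbouring lists, grouped by list (y axis). Blue marks 10 lower and red 6 higher genes; the folate and serine genes shown are blue.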

How the data were processed

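The submitters deposited 1 table of footprint counts per gene, raw whole-number counts for 5 libraries, not normalized by the authors. The submitters' processing notes name STAR 2.5.2b, cutadapt 4.6, DESeq2 1.42.0, FastQC 0.12.1 and the build hg38. For the counting tool, the annotation and the treatment of shared reads, nothing is stated in the sources used here. Per the labels' protocols, lysate was digested with MNase, monosomes were taken from a gradient and rRNA was depleted. MNase prefers certain bases, so footprint recovery depends on sequence.

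Counts were analysed with edgeR 4.0.16 in R 4.3.3: filterByExpr, TMM, and the quasi-likelihood F test of MUT against WT on all libraries (3 residual degrees of freedom). Standard errors come from the F statistic, and 95% intervals from its degrees of freedom. The test was checked on simulated counts. There it recovered 8% of genes changed 1.25-fold, 52% of those changed 1.5-fold and 88% of those changed 2-fold. Only 200 of 11991 genes were changed there, drawn at random from all levels, and 128 genes were called. In the real data 1203 genes were called higher and 1544 lower, so these rates need not hold for the members. A member that did not pass may still have changed by a small amount. Alternatives, 16 per gene, were other scalings, DESeq2 1.42.0, limma-voom (limma 3.58.1), robust dispersion, no filter or a strict filter (a mean of 10 CPM and 30 counts in 2 or more libraries), a block for the replicate number, each library left out, thinning to the smallest library, and a correction for local gene density (protein-coding genes within 500000 bases) and gene span. All pairs of libraries differed beyond counting noise (chi-square per gene 1.90 to 8.02). Of 17297 names 17253 matched GRCh38.p14.

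The members and lists were chosen with earlier results of these data known. Named genes are all members and up to 3 called genes per direction in each neighbouring list, of which a few are left out here.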

Additional observations from a re-analysis of the deposited data

How the results depend on the processing

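None of the 12 called members changed sign in any of the 16 alternatives, but the balance of higher against lower calls turned with the scaling: among all tested genes, upper-quartile scaling gave 1558 higher and 1209 lower where TMM gave 1203 and 1544, and scaling by library size alone gave 1756 and 1040. Leaving out 1 library at a time gave 5 to 9 members lower and 0 to 4 higher, a members' median of -0.166 to -0.03794, 2 to 7 neighbouring genes higher and 5 to 12 lower, and 509 to 1089 genes higher and 732 to 1339 lower over the whole table. DESeq2 called 0 members higher, and 610 genes higher and 953 lower over the whole table. Members higher numbered 1 with libraries thinned to the smallest and 1 after the correction for gene density and span. Neighbouring genes higher numbered 11 with upper-quartile scaling, 12 with library size only, and 10 under the replicate block. The causes of these shifts were not tested. The numbers 1 and 2 are shared by both groups, but no source says that they mark a shared batch. Deviations of same-numbered libraries correlated at 0.08 (number 1) and 0.15 (number 2). With only 2 WT libraries their deviations are mirror images, so these values cannot show whether a batch was shared. With the replicate block 4 members were higher and 11 lower. Over the single members, 480 of the alternative values kept their side of the threshold and sign, 34 lost a call, 10 gained one and 36 changed sign without a call in either fit. CTPS2, DHODH and PFAS had the highest standard errors among the members, and the part of depth in them was not tested.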
